A study of Homo sapiens with 12 samples.

Results

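Aminoacyl-tRNA synthetases are the enzymes that join each amino acid to its tRNA, and the 35 human genes described here comprise 19 for cytosolic enzymes and 16, with symbols ending in 2, for mitochondrial enzymes. Members were all gene probes whose RefSeq accession, as given in the scanner files, was paired with one of these symbols in the RefSeq gene table of GRCh38.p14. Of the 41000 gene probes of the array, 40 belonged to 33 of the 35 genes. CARS1 and EARS2 had no probe named in this way. A probe was tested when the scanning software marked its spots as well above background on 5 or more of a condition's 6 arrays. This filter kept 39 member probes of 32 genes, 18 cytosolic and 14 mitochondrial, among 24338 probes and 11592 named genes on the whole array. MARS2, the mitochondrial methionyl enzyme, reached that mark on 2 control arrays and 3 of the other arrays and was not tested. For each gene, the probe with the highest mean signal was used.

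The study asked how over-expression of SRSF2, a splicing factor of the SR protein family, changes transcript levels in H358, a human lung carcinoma cell line. All 12 one-colour 44 k Agilent arrays were hybridized with total RNA of the H358/Tet-On/SRSF2 cells, a single clone that carries SRSF2 under a doxycycline-responsive promoter. The 6 arrays labelled SRSF2 over-expression followed 24 hours in 1 µg/mL doxycycline. The 6 control arrays were labelled with the same 24 hours and no treatment, and whether control cells received doxycycline is not given in the sources used here. By these labels, an effect of doxycycline itself cannot be told apart from an effect of SRSF2. Each of 3 slides held 2 control and 2 SRSF2 over-expression arrays. The study's supplement states that each condition was labeled in 3 experiments with 2 arrays from each. The arrays of a condition are thus not 6 separate samples, the labels do not say which RNA came from separate cultures, and P-values over 6 arrays measure a spread that is in part technical. The precision of every value is limited by the number of arrays.

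The SRSF2 probe went against the label. Signals are given on the log2 scale after subtraction of each array's 75th percentile. The SRSF2 signal lay between 3.74 and 4.03 on control arrays and between 2.29 and 2.56 on arrays labelled SRSF2 over-expression, a log2 difference of -1.46 (SE 0.06, limma adjusted P = 1.68e-09). Whether this probe lies in the part of the transcript that the transgene carries was not tested, and the study's RT-PCR and protein measurements were not analysed here. Directions below are those of arrays labelled SRSF2 over-expression relative to arrays labelled control. The labelled cell type was also examined. All 6 epithelial markers were well above background on every array, as were 4 of 5 lung epithelial markers. Of the 6, 2 were higher and 2 were lower past the threshold, the largest changes being KRT19 (log2 difference -0.50) and MUC1 (-0.44). Of the 4 lung markers, 2 were higher, NAPSA (0.63) and NKX2-1 (0.34), and none was lower. Of 5 leukocyte markers, CD3E, CD79A, CD14 and CD68 passed the filter, 3 of them well above background on every array, and none differed past the threshold, while PTPRC did not pass the filter. The 4 fibroblast markers with a probe did not pass it. Both tested endothelial markers passed the threshold, PECAM1 with a log2 difference of -0.46 and VWF with 0.31, and their part in the results was not tested. Between 54.2% and 68.0% of gene spots were well above background on each array.

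In the cytosol, several synthetases are held together by scaffold proteins in the multi-synthetase complex, while others act as free enzymes. Mitochondria carry their own tRNAs and use a largely separate set of synthetases that are encoded in the nucleus and imported. Many cytosolic synthetase genes are known targets of ATF4, the transcription factor of the amino acid response, and several cytosolic enzymes have further roles in signalling.

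Of the 32 genes tested, 11 were up-regulated and 14 were down-regulated on arrays labelled SRSF2 over-expression, and 7 did not pass an adjusted P-value of 0.05. Over all named genes, 60.7% passed this threshold, 30.5% up-regulated and 30.2% down-regulated, so a large number of calls was general to the array. Synthetase changes were moderate. None reached 2-fold, a size reached by 5.26% of all named genes, and 7 reached 1.5-fold (1 up-regulated and 6 down-regulated), which 20.8% of all named genes did (9.75% up-regulated and 11.1% down-regulated). The arrays of the 2 conditions did not overlap for 17 synthetase genes, and for 43.5% of all named genes. The median log2 difference was -0.04 over the synthetase genes and -0.004 over all named genes, and the median size of the difference without its sign was 0.31 and 0.29. All 25 genes that passed the threshold changed in the same direction on each of the 3 slides. They were called on these same arrays, so this agreement is not a separate test. When same-condition arrays sharing a slide were averaged to 1 replicate (3 against 3), 39.0% of all probes passed, against 57.7% on the single arrays. Of the 32 synthetase genes tested, 15 passed on these averages, all of them among the 25. AARS1, EPRS1, FARSB, VARS1, WARS1, IARS2, PARS2, RARS2, VARS2 and YARS2 then did not (adjusted P between 0.0551 and 0.227).

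**Figure D1:**
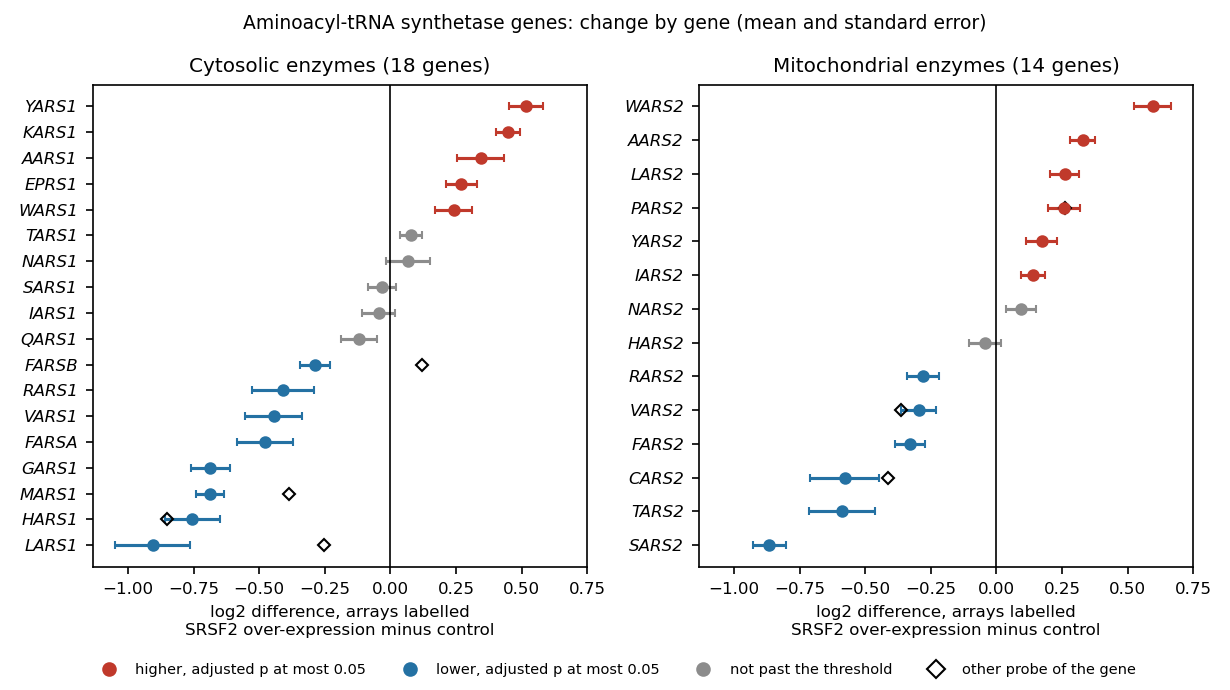
Log2 difference, arrays labelled SRSF2 over-expression minus control arrays, for each of the 18 cytosolic and 14 mitochondrial synthetase genes tested, with points at the limma estimate and bars of 1 standard error (6 arrays per condition). Red and blue points passed an adjusted P-value of 0.05, grey points did not, and open diamonds mark other probes of a gene; values run from -0.91 (LARS1) to 0.60 (WARS2).

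The cytosolic and mitochondrial enzymes were compared next. GARS1 and KARS1, which each encode both a cytosolic and a mitochondrial form, were counted as cytosolic. Among the 18 cytosolic genes, 5 were up-regulated, 8 were down-regulated and 5 did not pass the threshold. Among the 14 mitochondrial genes, 6 were up-regulated, 6 were down-regulated and 2 did not pass. The median log2 difference was -0.08 for the cytosolic and 0.02 for the mitochondrial genes. Their gap was -0.11 over all arrays, and -0.21, -0.09 and -0.08 on slides 1, 2 and 3 (SD 0.07 over the 3 slides). The gap thus had the same sign on each slide, but it is a description of 2 short lists and was not tested. Both lists spanned changes in both directions that were several times larger than the gap between their medians.

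The largest decrease was that of LARS1, the cytosolic leucyl enzyme, which is also known as a leucine sensor of the mTORC1 pathway (probe A_24_P51360). Its log2 signal was lowest at 0.90, with a median of 0.94 and a highest value of 1.22, on control arrays, and was -0.23, -0.04 and 0.56 on arrays labelled SRSF2 over-expression. The groups did not overlap, although the 2 arrays of slide 2 stood above the others of their condition. LARS1 was 1.87-fold lower (log2 difference -0.91, SE 0.14, adjusted P = 0.000138). A second LARS1 probe was also lower, by a smaller amount (log2 difference -0.25, adjusted P = 0.0448), with overlapping arrays.

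HARS1, the cytosolic histidyl enzyme and the Jo-1 autoantigen of myositis, ranged from 2.07 to 2.76 on control arrays, with a median of 2.69 (probe A_23_P133227). On arrays labelled SRSF2 over-expression it ranged from 1.74 to 1.93, with a median of 1.85. There was no overlap, and the low control value was that of array 2 alone. The decrease was 1.69-fold (log2 difference -0.75, SE 0.11, adjusted P = 4.78e-05), and the second HARS1 probe gave a log2 difference of -0.85 (adjusted P = 2.03e-06).

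MARS1, the cytosolic methionyl enzyme, lay between 3.35 and 3.49 on control arrays (median 3.39) and between 2.59 and 2.85 on arrays labelled SRSF2 over-expression (median 2.70; probe A_24_P175909). These are narrow groups far apart, with a 1.61-fold decrease (log2 difference -0.69, SE 0.05, adjusted P = 2.68e-07). Its second probe showed a log2 difference of -0.38 (adjusted P = 0.00286), and its arrays did not overlap either.

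GARS1, the glycyl enzyme, is encoded by one gene that gives rise to both the cytosolic and the mitochondrial form. Control arrays ranged from 0.84 to 1.31 with a median of 0.95, and arrays labelled SRSF2 over-expression from 0.24 to 0.35 with a median of 0.31 (probe A_24_P154948). No array of one group reached the other, and the change was 1.61-fold (log2 difference -0.69, SE 0.07, adjusted P = 4.42e-06). KARS1, the lysyl enzyme and the other gene with both forms, moved the opposite way, with a log2 difference of 0.45 (SE 0.04, adjusted P = 2.64e-06) and no overlap.

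FARSA encodes the catalytic subunit of the cytosolic phenylalanyl enzyme. It ranged from 2.04 to 2.46 on control arrays (median 2.33) and from 1.65 to 2.08 on arrays labelled SRSF2 over-expression (median 1.67; probe A_23_P78685). The groups overlapped, because the slide 2 arrays labelled SRSF2 over-expression were as high as the lowest control arrays. The log2 difference of -0.48 (SE 0.11, adjusted P = 0.00177) became -0.37 without slide 3 and no longer passed (adjusted P = 0.0592). FARSB, the partner subunit, was lower by its brighter probe (log2 difference -0.29, adjusted P = 0.00102), but its other probe gave 0.12 and did not pass (adjusted P = 0.369). FARSB was the only one of the 7 genes with several probes for which a second probe failed to pass in the direction of the first.

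YARS1, the cytosolic tyrosyl enzyme, whose fragments are known to act as cytokines, showed the largest increase of a cytosolic gene. Control arrays ranged from -0.93 to -0.61 (median -0.79) and arrays labelled SRSF2 over-expression from -0.42 to -0.14 (median -0.25; probe A_23_P379550). The groups were separate and the increase was 1.43-fold (log2 difference 0.52, SE 0.06, adjusted P = 1.53e-05). The other cytosolic genes that were up-regulated were KARS1, AARS1 (log2 difference 0.34), EPRS1 (0.27) and WARS1 (0.24). EPRS1 is a bifunctional enzyme for glutamate and proline, and WARS1, the tryptophanyl enzyme, is known to be induced by interferon-gamma. WARS1 lost its call without slide 2 (log2 difference 0.23, adjusted P = 0.0681).

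The remaining down-regulated cytosolic genes were VARS1, the valyl enzyme (log2 difference -0.45), and RARS1, the arginyl enzyme (-0.41), both with overlapping arrays. Both lost their call in fits with 1 slide left out, which use fewer arrays. VARS1 had a log2 difference of -0.38 without slide 3 (adjusted P = 0.0665), and RARS1 had -0.30 without slide 1 (adjusted P = 0.152) and -0.36 without slide 2 (adjusted P = 0.0932). The glutaminyl (QARS1), isoleucyl (IARS1), seryl (SARS1), asparaginyl (NARS1) and threonyl (TARS1) enzymes did not pass the threshold, with log2 differences between -0.12 and 0.08.

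Among the mitochondrial enzymes, SARS2, the seryl enzyme, fell the most. Its signal was between 0.77 and 0.95 on control arrays (median 0.91) and between -0.08 and 0.19 on arrays labelled SRSF2 over-expression (median -0.03; probe A_23_P90484). The groups were far apart on all slides, and SARS2 was 1.82-fold lower (log2 difference -0.87, SE 0.06, adjusted P = 1.47e-07).

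WARS2, the mitochondrial tryptophanyl enzyme, showed the largest increase of all synthetase genes tested. It lay between -0.28 and -0.08 on control arrays (median -0.20) and between 0.21 and 0.57 on arrays labelled SRSF2 over-expression (median 0.42; probe A_23_P74380). Every array labelled SRSF2 over-expression exceeded every control array, with a 1.51-fold increase (log2 difference 0.60, SE 0.07, adjusted P = 1.02e-05). LARS1, SARS2 and WARS2 were the 3 genes that kept their call under all 20 alternative settings.

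TARS2, the mitochondrial threonyl enzyme, ranged from 1.11 to 1.67 on control arrays (median 1.48) and from 0.64 to 1.21 on arrays labelled SRSF2 over-expression (median 0.77; probe A_23_P553). Here 1 low control array overlapped the slide 2 arrays of the other condition, and the decrease was 1.5-fold (log2 difference -0.59, SE 0.12, adjusted P = 0.00130). CARS2, the mitochondrial cysteinyl enzyme, ranged from 3.96 to 4.87 on control arrays (median 4.67) and from 3.86 to 4.20 on arrays labelled SRSF2 over-expression (median 3.95; probe A_23_P128624). Only control array 2 lay within the range of the other condition, and the decrease was 1.49-fold (log2 difference -0.58, SE 0.13, adjusted P = 0.00219). The second CARS2 probe did not overlap and gave a log2 difference of -0.41 (adjusted P = 9.13e-05).

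**Figure D2:**
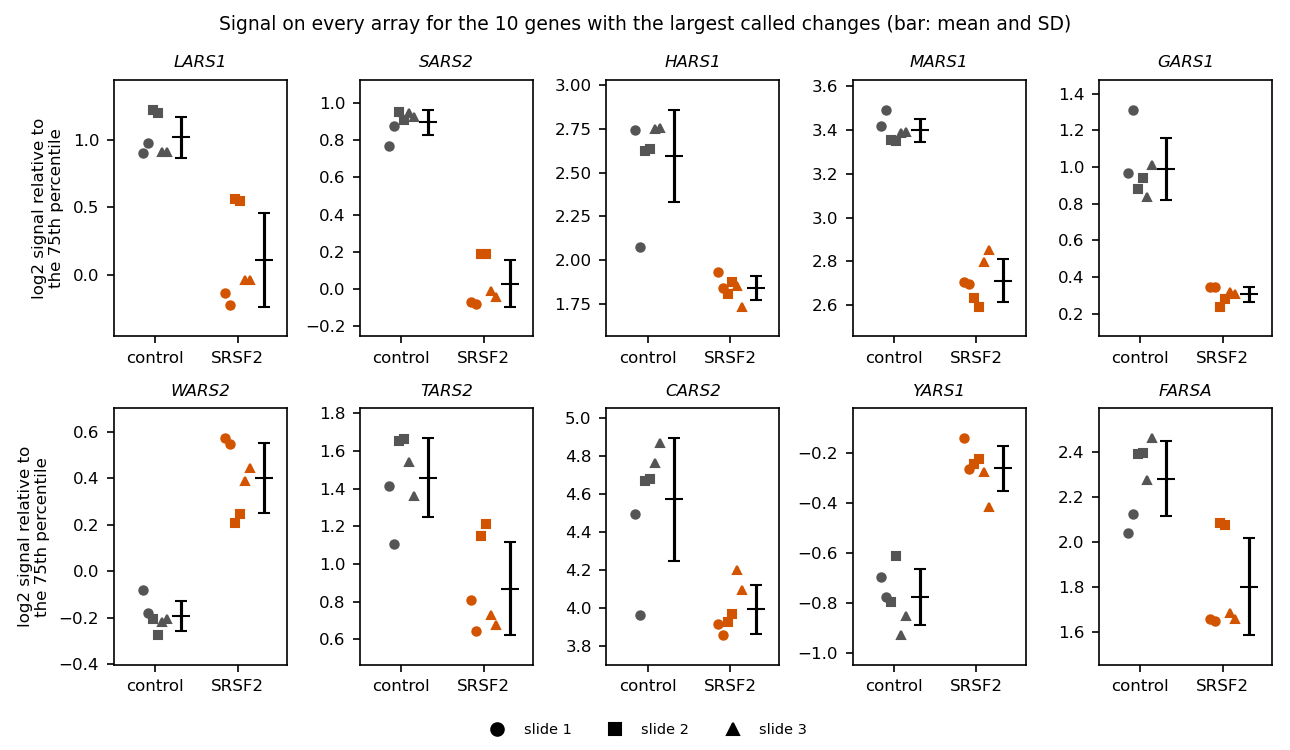
Log2 signal relative to the array's 75th percentile on each of the 12 arrays for the 10 synthetase genes with the largest changes among those past an adjusted P-value of 0.05, with control arrays in grey, arrays labelled SRSF2 over-expression in orange, a marker shape for each slide, and bars at the mean with 1 SD (n = 6 arrays). The groups are separate for LARS1, SARS2, HARS1, MARS1, GARS1, WARS2 and YARS1 and overlap for TARS2, CARS2 and FARSA; the vertical scale differs between panels.

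The other mitochondrial genes changed less. FARS2 (log2 difference -0.33), VARS2 (-0.30) and RARS2 (-0.28) were down-regulated with separate groups. AARS2 (0.33), LARS2 (0.26) and PARS2 (0.26) were up-regulated, also with separate groups, and the second probes of VARS2 (-0.36) and PARS2 (0.26) passed in the same directions. YARS2 (0.17) and IARS2 (0.14) were the smallest changes that passed. IARS2 lost its call without slide 2 (log2 difference 0.15, adjusted P = 0.0632) and without slide 3 (0.12, adjusted P = 0.0927), and YARS2 without slide 3 (0.15, adjusted P = 0.119). HARS2 (-0.04) and NARS2 (0.09) did not pass.

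For 13 amino acids, both the cytosolic and the mitochondrial gene were tested. Both genes were up-regulated for alanine, proline, tryptophan and tyrosine, with EPRS1 taken as the cytosolic gene for proline. Both were down-regulated for phenylalanine, arginine and valine, with FARSB taken as the cytosolic gene for phenylalanine. The brighter FARSB probe gave -0.29 and FARS2 -0.33. The other subunit gene, FARSA, gave -0.48, and the second FARSB probe gave 0.12 and did not pass. In alanine and proline the 2 changes were nearly equal, 0.34 and 0.33 for AARS1 and AARS2, and 0.27 and 0.26 for EPRS1 and PARS2. Leucine was the amino acid with calls in opposite directions, since LARS1 fell by 0.91 on the log2 scale while LARS2 rose by 0.26. One gene passed and the other did not for histidine, isoleucine, serine and threonine. In serine and threonine it was the mitochondrial gene that was lower, SARS2 by -0.87 against -0.03 for SARS1, and TARS2 by -0.59 against 0.08 for TARS1. Neither gene passed for asparagine. With so many calls over the whole array, neither the number of pairs with equal or opposite direction nor the difference within a pair was tested.

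**Figure D3:**
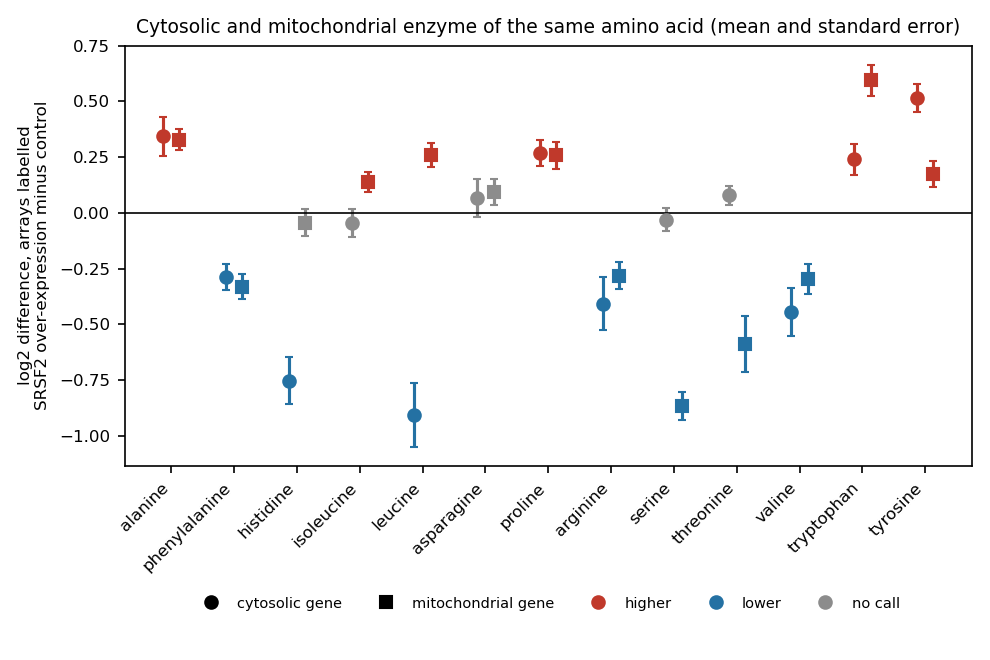
Log2 difference, arrays labelled SRSF2 over-expression minus control arrays, of the cytosolic gene (circle) and the mitochondrial gene (square) of 13 amino acids, with bars of 1 standard error and colours for higher, lower or no call at an adjusted P-value of 0.05. The cytosolic gene is EPRS1 for proline and FARSB, by its brighter probe, for phenylalanine. The 2 genes shown lie together for alanine, proline and phenylalanine and farthest apart for leucine (-0.91 and 0.26).

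HARS1 and HARS2 are a head-to-head pair on chromosome 5, transcribed away from each other. In the RefSeq promoter windows of GRCh38.p14, their start sites were 85 base pairs apart. The 84 bases between them are shown because both genes share this stretch while only HARS1 passed the threshold. The strand is that of HARS2 (chr5:140691371-140691454, plus strand), and capitals mark the letters CCGGAAG, read on either strand, to which ETS family factors such as GABP can bind.
HARS1-HARS2: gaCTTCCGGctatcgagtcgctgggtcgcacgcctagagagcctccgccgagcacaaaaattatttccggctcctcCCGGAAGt
The match to the left is next to the HARS1 start and that to the right next to the HARS2 start. The difference between the HARS1 and HARS2 probes on the same array lay between -0.17 and 0.47 on control arrays and between -0.63 and -0.38 on arrays labelled SRSF2 over-expression. The groups did not overlap, and the difference between conditions was -0.71 on the log2 scale. This pair was chosen after its values were seen, so the difference is a description with no test.

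The 7 synthetases of the multi-synthetase complex did not move together. LARS1, MARS1 and RARS1 were down-regulated, EPRS1 and KARS1 were up-regulated, and IARS1 and QARS1 did not pass, with a median log2 difference of -0.12. The 11 cytosolic genes outside the complex had 3 genes up-regulated and 5 down-regulated (median -0.03). The 3 scaffold proteins of the complex were all up-regulated by small amounts, EEF1E1 by 0.24 (adjusted P = 0.0203), AIMP1 by 0.23 (adjusted P = 0.00094) and AIMP2 by 0.13 (adjusted P = 0.0231). Grouped by catalytic fold, the 15 class I enzymes had 6 genes up-regulated and 7 down-regulated, and the 16 class II enzymes 4 and 7.

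Cytosolic synthetase genes known as ATF4 targets were examined as a list. Of the 11 tested, 4 were up-regulated, 3 were down-regulated and 4 did not pass (median log2 difference 0.07). Of the 7 other cytosolic genes, KARS1 was up-regulated, 5 were down-regulated and 1 did not pass (median -0.41). The difference between these lists was not tested. ATF4 itself was slightly higher (log2 difference 0.25, adjusted P = 0.0360), with overlapping arrays. The wider amino acid response list of 24 genes, which includes ATF4, had 6 up-regulated, 8 down-regulated and 10 that did not pass (median -0.09). Its largest changes were decreases of SHMT2, the mitochondrial serine hydroxymethyltransferase (-0.66, adjusted P = 1.35e-05), and ASNS, asparagine synthetase (-0.45, adjusted P = 3.26e-05).

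Promoter sequence was read from the RefSeq windows of GRCh38.p14, which run from 250 bases before to 50 bases after a start site and cover 30 of the 35 genes in 39 windows. The letters TGATGNAA, a form of the composite element bound by ATF4 with C/EBP proteins, were present on either strand in 8 of the 39 windows and in 3.62% of all 35116 windows. The 8 windows belonged to AARS1, CARS1, GARS1, IARS1, MARS1, NARS1, TARS1 and YARS2. Stretches are shown for the 5 tested genes whose match begins before the start site. In NARS1 and TARS1, both without a call, the match begins after the start site, and CARS1 was not tested. Each stretch shown ends in its match, on one strand or the other, while the genes differed in direction. Each is written on the strand of its gene, 30 bases long, with the match in capitals.
AARS1 (up-regulated, chr16:70289686-70289715, minus strand): cccatcccaccttttctcgcagTTGCATCA
YARS2 (up-regulated, chr12:32756087-32756116, minus strand): atcataagcagatccacactgcTGATGGAA
GARS1 (down-regulated, chr7:30594823-30594852, plus strand): cgccgcgtcgtttacgcggcgaTTTCATCA
MARS1 (down-regulated, chr12:57488042-57488071, plus strand): agaagcgggaggccggttccggTTGCATCA
IARS1 (no call, chr9:92293703-92293732, minus strand): tggatcccgcattttcagcgcgTTGCATCA
The match begins 4 bases before the start site in MARS1, 13 in IARS1, 33 in GARS1 (in the window of its second start site), 187 in AARS1 and 197 in YARS2. In YARS2 it is on the strand of the gene and in the others on the opposite strand. Among genes with a window and a test, the letters were found in 2 of 9 up-regulated, 2 of 11 down-regulated and 3 of 7 genes without a call. A match describes the letters and does not show that a factor was bound.

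The ETS letters CCGGAAG were present in 19 of the 39 member windows and in 10.3% of all windows. By direction, they were found in 3 of 9 up-regulated genes, 6 of 11 down-regulated genes and 4 of 7 genes without a call. They were held by 9 of 16 cytosolic and 7 of 14 mitochondrial genes. The letters GCATGCGC, recognised by NRF1, were found in the windows of MARS2 and YARS2 and in 3.05% of all windows.

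Genes that act beside the synthetases were described by lists of the same kind. In the cytosol, 7 tRNA delivery and elongation factors had 2 up-regulated and 1 down-regulated, and the largest changes were those of XPOT, the tRNA exportin (log2 difference 0.53, adjusted P = 0.00697), and EEF1A1, which carries charged tRNA to the ribosome (0.42, adjusted P = 0.000218). In mitochondria, 16 translation partners had 3 up-regulated and 5 down-regulated (median -0.08). The increases of MTFMT, which formylates the initiator methionyl-tRNA (0.73, adjusted P = 1.27e-07), and QRSL1, a subunit of the amidotransferase that completes glutaminyl-tRNA (0.70, adjusted P = 7.76e-08), were the largest. Of 18 tRNA maturation and modification genes, 1 was up-regulated and 10 were down-regulated (median -0.27).

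**Figure D4:**
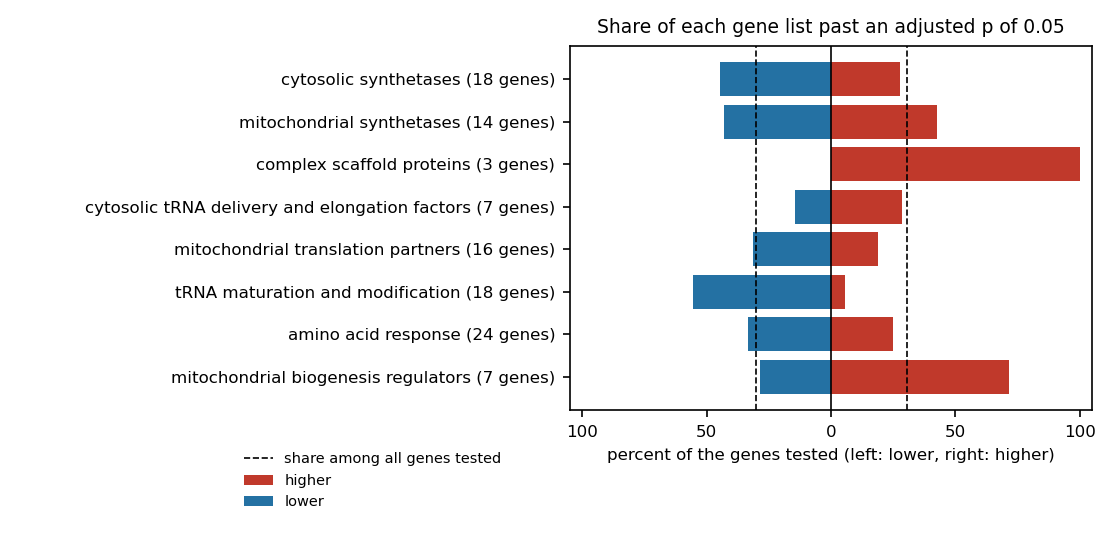
Percent of each gene list past an adjusted P-value of 0.05 and lower (blue, left) or higher (red, right) on arrays labelled SRSF2 over-expression, with the number of genes tested beside each name and dashed lines at the shares over all named genes (30.2% lower and 30.5% higher). The cytosolic synthetases have 8 genes lower and 5 higher of 18 and the mitochondrial synthetases 6 and 6 of 14, whereas tRNA maturation genes are mostly lower (10 of 18) and all 3 scaffold proteins are higher.

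These results depended on the scaling of the arrays. When arrays were scaled on the spike-in probes in place of the 75th percentile, the median difference over all probes shifted upward by 0.21 on the log2 scale, the share of calls that were higher went from 51.5% to 76.8%, and 5 synthetase genes passed, namely YARS1, KARS1 and WARS2 (higher) and LARS1 and SARS2 (lower). The shift came with slide 1, whose control arrays had spike-in offsets of 0.46 and 0.26, against -0.31 to 0.12 on the other control arrays. With slide 1 left out, a setting chosen after seeing the data, spike-in scaling shifted the median by 0.02, 50.7% of calls were higher and 13 synthetase genes passed. In total RNA of a whole culture, fewer cells of a type and less RNA per cell cannot be told apart.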

How the data were processed

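Members and gene lists were chosen with earlier results of these data known. The scanner files deposited by the authors hold, for each spot, a processed intensity from which Feature Extraction 10.7.3.1 had already subtracted the background. The authors also deposited a table of log2 values, centred by probe; after the same centring, the values used here differed from it by a median of 0.00764. The methods name GeneSpring GX, exclusion of genes missing in over 25% of samples, and a 2-fold cut-off.

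Log2 processed intensity minus the array's 75th percentile over gene probes was used; flagged outlier spots were left out and spots of a probe averaged. Probes were kept when missing on at most 25% of arrays and well above background on 5 of 6 arrays of a condition. Accessions named 23953 of 25868 RefSeq probes; 17047 of all 41000 gene probes have no symbol here. Conditions were compared with lmFit and eBayes (limma 3.58.1, R 4.3.3) without covariates, with Benjamini-Hochberg adjustment over 24338 probes at 0.05. The fit was tested on simulated data: 53 of 93 probes changed by 0.5 and 94 of 107 changed by 1 (log2) were recovered, with 5 false calls. The simulation drew noise separately for each array and changed few probes. Its counts therefore do not carry over to these arrays, which deviate together by slide and have many calls.

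Array values are given for the 10 called genes with the largest change, and for lists their 2 largest called changes, with some results not reported here; other named genes were chosen after their values were seen. Deviations from the condition's mean were correlated between control and SRSF2 over-expression arrays. Arrays with the same number deviated together (correlations 0.28 to 0.64, 6 pairs), as did other arrays of one slide (0.33 to 0.65), so the number stands for the slide. Arrays of different slides gave -0.48 to -0.05, but taking out the condition's mean by itself pushes these values below 0. Alternatives covered scaling, quantile normalization, background correction (on the median spot signal), the authors' table, filters, outlier spots, the methods' t-test, blocks, means of 2 arrays, left-out slides or arrays, the mean over probes, and fold thresholds of 1.5 and 2; spike-in scaling with slide 1 left out was chosen after seeing the data. Figures and promoter matches used Python 3.11.15. Start sites and promoter windows are those of RefSeq, GRCh38.p14, while the array annotation is of build hg18.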

Additional observations from a re-analysis of the deposited data

Results flagged for a closer look

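In 5 of 64 groups of 6 arrays (32 genes in both conditions), 1 array stood far from the other 5, and chance gives about 1 such group in 20. Control array 2 was high for GARS1 (1.31, others 0.84 to 1.01) and low for HARS1 (2.07, others 2.62 to 2.76). Control array 6 was low for RARS1 (4.15, others 4.63 to 4.92). Of the arrays labelled SRSF2 over-expression, array 5 was high for IARS2 (3.23, others at most 3.1) and array 2 was low for LARS2 (1.47, others 1.58 to 1.64). Each value is a log2 signal relative to the array's 75th percentile.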

How the results depend on the processing

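No synthetase gene that passed the threshold changed sign under any of the 20 alternatives, and 11 of the 25 lost their call, if at all, only under the settings with spike-in scaling or normexp correction. The counts up and down (5 and 8 cytosolic, 6 and 6 mitochondrial) became 2 and 1, and 1 and 1, with spike-in scaling (27.1% of all probes called), 0 and 2, and 1 and 1, with normexp correction (11.6%, the median of all probes moving by -0.11), and 3 and 6, and 1 and 3, with spike-in scaling when slide 1 was left out (27.4%). With the mean of 2 arrays as 1 replicate they were 2 and 6, and 3 and 4, or 15 of 25 calls (39.0% of all probes called). At 1.5-fold the counts were 0 and 4, and 1 and 2, and at 2-fold 0 and 0, and 0 and 0. The cause of these differences was not tested, except that fewer samples or a larger fold limit the calls by construction. With a slide left out, cytosolic genes up numbered 4 to 5 and cytosolic down 6 to 7. Mitochondrial genes up numbered 4 to 6 and down 6 to 6, with 48.3% to 58.2% of all probes called. The cytosolic minus mitochondrial gap (-0.11) was then -0.16 to -0.10. The gap was -0.17 both with no filter on dim probes, where the dim MARS2 probe was included, and without background subtraction. With the replicate block the counts were 5 and 9, and 6 and 6, as QARS1 also passed (65.8% of all probes called). With the slide as a block they were 5 and 9, and 7 and 6, as NARS2 passed too (70.1%). Without a block 57.7% of all probes were called. On means of 2 arrays with the slide as a block the counts were 5 and 8, and 4 and 6 (54.8%). Neither QARS1 (adjusted P = 0.193) nor NARS2 (adjusted P = 0.307) passed there.

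Signs turned only in genes without a call. SARS1 was 0.0071 with quantile normalization. With spike-in scaling IARS1 was 0.16, QARS1 0.087, SARS1 0.17 and HARS2 0.16. With normexp correction IARS1 was 0.14, SARS1 0.067 and HARS2 0.16. Without background subtraction IARS1 was 0.0018 and HARS2 0.027. With a slide left out, IARS1 ranged up to 0.023 (without slide 1; 0.051 with spike-in scaling as well), NARS1 from -0.011 (without slide 3) to 0.11, SARS1 from -0.080 to 0.012 (without slide 3) and HARS2 from -0.079 to 0.012 (without slide 3).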

Other observations

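In the tRNA maturation list, WDR4, a subunit of the tRNA 7-methylguanosine methyltransferase, was 2.09-fold lower (log2 difference -1.06, SE 0.14, limma adjusted P = 4.02e-05), and its arrays did not overlap. CLP1, a kinase of the tRNA splicing machinery, moved the other way and was 2.07-fold higher (1.05, SE 0.08, adjusted P = 2.81e-07). Among 7 tested regulators of mitochondrial biogenesis, 5 were up-regulated and 2 were down-regulated. GABPA, the DNA-binding subunit of the ETS factor GABP, rose 2.78-fold (log2 difference 1.48, SE 0.09, adjusted P = 3.96e-08), and TFB2M, a mitochondrial transcription factor, rose 1.51-fold (0.60, SE 0.05, adjusted P = 2.79e-07).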
